A study of Homo sapiens with 24 samples.

Results

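The cyclin-dependent kinase (CDK) inhibitor genes CDKN1A, CDKN1B, CDKN1C, CDKN2A, CDKN2B, CDKN2D and CDKN3 were followed in colorectal cancer cells in which the kinase MLK4 was induced. The members were all probe sets that the platform annotation assigns to a single gene symbol and that carry the symbol of a listed gene. These were 16 of the 54613 probe sets that are not array controls. CDKN1C had 5 probe sets, CDKN2A 3, CDKN2B, CDKN2D and CDKN3 2 each, and CDKN1A and CDKN1B 1 each. The genes were listed by name, not by measured values.

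The study used HCT15 and HT115, established colorectal cancer lines whose own MLK4 carries loss-of-function mutations per the labels. HCT15 derivatives with tetracycline-inducible wild-type MLK4 (WT) or the mutant form Y330H, and HT115 derivatives with inducible WT or E314K, were each sampled as 3 arrays with Tet in the title (24 hours of tetracycline) and 3 without. This gave 8 groups of 3 arrays and 24 arrays in all, and the mutant forms were the study's control inductions. What the samples without the tag received is not given in the labels, and they are called untagged here. Whether a derivative was 1 clone or a pool, and whether replicates were separate cultures, is not given either, so every p-value refers to the spread among these arrays, which may be technical.

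CDK inhibitors bind and block the kinases that drive cells from G1 into S phase. Proteins of the CIP/KIP family, p21 (CDKN1A), p27 (CDKN1B) and p57 (CDKN1C), bind cyclin-CDK complexes of several kinds, whereas those of the INK4 family, p16 (CDKN2A), p15 (CDKN2B) and p19 (CDKN2D), bind CDK4 and CDK6 and keep cyclin D from activating them, which leaves RB free to hold E2F factors in check. CDKN2A also encodes ARF, an inhibitor of MDM2, and CDKN3 is not an inhibitor of either family but a phosphatase that removes the activating phosphate from CDKs. The series title places p21 and p15 downstream of JNK and JUN, and MLK4 (current symbol MAP3K21) belongs to the mixed-lineage kinases, which signal to JNK. The question for this family is therefore which of its RNAs differed once functional MLK4 was expressed.

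Promoter sequences are shown for the genes the results turn on: CDKN1A and CDKN2B, which the study's title names, and CDKN2A, which separated the lines most widely and has a start for p16 and another for ARF. Each sequence is the 250 bases before the annotated start, read 5′ to 3′ on the gene's strand from the RefSeq promoter table (GRCh38.p14), in which 6 of the 7 genes had an entry. Capitals mark each match to GGGCGG, the GC box bound by SP1 and KLF family factors, on either strand.
CDKN1A, chr6:36678464-36678713, plus strand: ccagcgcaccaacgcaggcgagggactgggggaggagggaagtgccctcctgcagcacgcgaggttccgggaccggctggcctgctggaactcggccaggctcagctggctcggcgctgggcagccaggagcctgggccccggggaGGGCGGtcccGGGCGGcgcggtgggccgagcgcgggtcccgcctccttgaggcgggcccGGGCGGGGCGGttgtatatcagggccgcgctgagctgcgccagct
CDKN2B, chr9:22009306-22009555, minus strand: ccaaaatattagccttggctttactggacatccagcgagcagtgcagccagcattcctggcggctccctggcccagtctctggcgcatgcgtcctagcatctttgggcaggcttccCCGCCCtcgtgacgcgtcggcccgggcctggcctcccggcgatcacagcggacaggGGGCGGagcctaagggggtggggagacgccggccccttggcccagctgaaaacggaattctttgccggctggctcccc
CDKN2A at the p16 start, chr9:21974858-21975107, minus strand: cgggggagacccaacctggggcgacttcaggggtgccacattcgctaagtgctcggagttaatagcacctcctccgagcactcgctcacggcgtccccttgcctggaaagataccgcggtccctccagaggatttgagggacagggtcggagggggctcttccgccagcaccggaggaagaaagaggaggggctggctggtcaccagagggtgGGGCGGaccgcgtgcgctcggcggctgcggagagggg
CDKN2A at the ARF start, chr9:21995325-21995574, minus strand: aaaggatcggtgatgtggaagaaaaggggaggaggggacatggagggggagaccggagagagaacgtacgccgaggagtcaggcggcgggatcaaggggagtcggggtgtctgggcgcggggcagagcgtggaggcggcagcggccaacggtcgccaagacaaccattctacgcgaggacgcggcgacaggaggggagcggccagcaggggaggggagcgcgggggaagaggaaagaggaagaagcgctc

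The CDKN1A window lies inside the annotated gene span (chromosome 6, 36676463 to 36687332), before an internal start, and held 4 GC boxes, at offsets of -104, -94, -45 and -40 from that start, the last pair overlapping. CDKN2B (chromosome 9, 22002903 to 22009313) held 2, at offsets of -134 on the opposite strand and -78, and CDKN2A (chromosome 9, 21967752 to 21995324) held 1 before the p16 start, at -37, and 0 before the ARF start. A GC box stood in 42.6% of all 35116 promoter windows of this length in the table. The AP-1 motif TGANTCA, which JUN dimers bind, had no match on either strand in any of the 7 windows of the members, and neither did TATAAA; these letters occurred in 6.57% and 10.7% of all windows. The windows of the members held 64.4% to 76.4% G and C (CDKN1A highest), against a median of 58% over all windows. The shares over all windows are not matched for that. A match or its absence describes only these letters in this stretch.

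All values are the deposited log2 signals, and changes are Tet-tagged minus untagged means with the standard error (SE) of a fit over all 24 arrays. Calls were made where the limma p, adjusted by Benjamini and Hochberg over all 54613 probe sets, was under 0.05, and "rose" and "fell" are used only of such calls. The 6 HT115 WT arrays had medians of 5.55 to 5.61, against 6.38 to 6.48 on the other 18, so HT115 WT levels were not set against those of other groups. HT115 WT changes were taken within its own arrays. Where such a change is set against that of another derivative, form or line cannot be told apart from array set. The signal of a bulk lysate cannot tell a larger share of expressing cells from more RNA per cell. The HCT15 WT arrays numbered 1 stood apart in the difference between 3′ and 5′ ACTB control probe sets, a sign of RNA integrity, with 1.17 untagged and 0.931 Tet-tagged, whereas the other 16 of the 18 were at 0.528 or below. Of the colon epithelial markers, 11 of 11 were above the array's 50th percentile in HT115 and 8 of 11 in HCT15, where KRT20 was lowest (23.3rd percentile). Of 4 endothelial markers none was above it in either line, COL1A1 was above it among 6 fibroblast markers in both lines, and CD14 was above it among 4 leukocyte markers in HCT15 only. The 1 probe set for MAP3K21 passed in none of the inductions (changes of -0.15 and 0.08 with WT and Y330H in HCT15, and -0.19 and 0.02 with WT and E314K in HT115, SE 0.14 each, limma adjusted p of 0.861 or higher). Where it lies relative to the induced cDNA is not stated, so it does not check the labels.

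**Figure D1:**
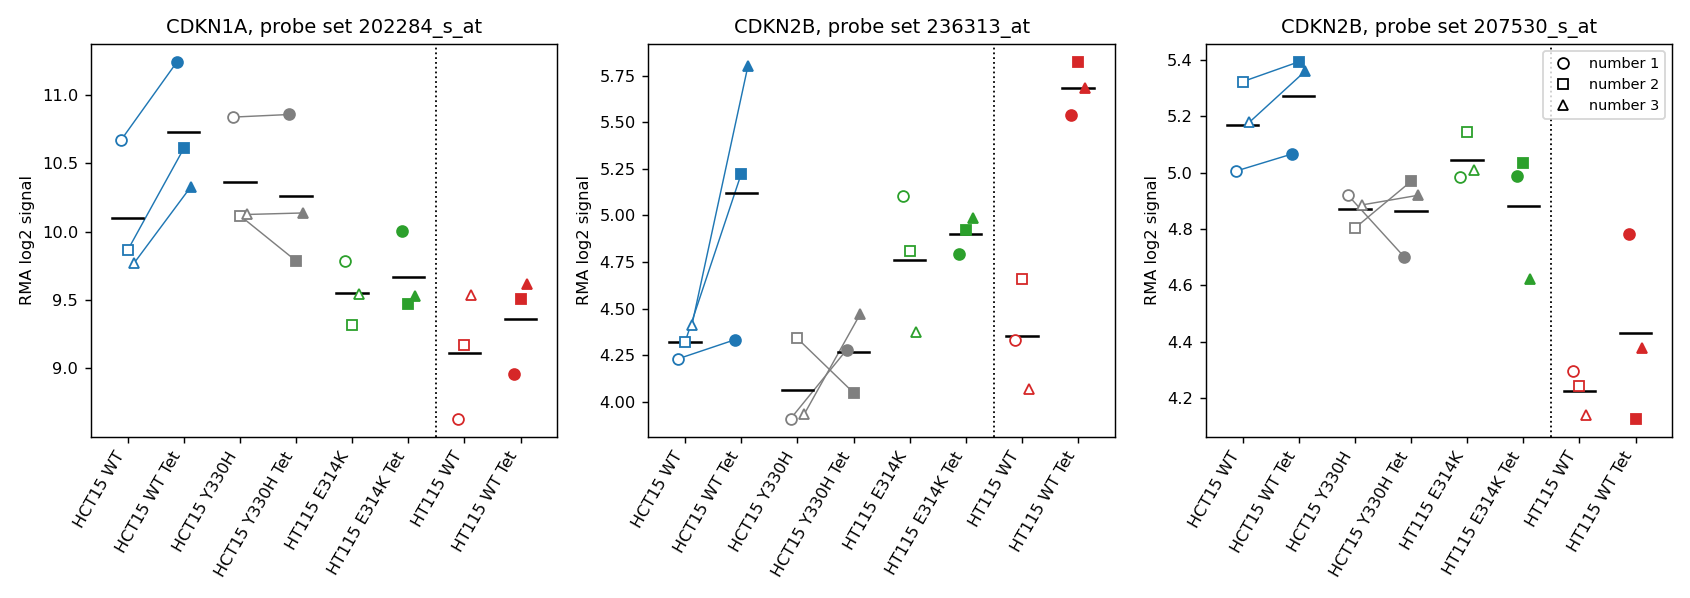
RMA log2 signal of the CDKN1A probe set and both CDKN2B probe sets in every array, with open symbols for untagged and filled symbols for Tet-tagged arrays, shapes for the replicate number, bars for group means (n = 3) and lines joining HCT15 arrays of the same number. CDKN1A was higher in the Tet-tagged array of each HCT15 WT pair, the Tet-tagged and untagged HT115 WT arrays did not overlap for CDKN2B 236313_at, and groups right of the dotted line are on another scale.

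CDKN1A, the gene of p21, was read by probe set 202284_s_at. Untagged HCT15 WT arrays had log2 levels of 10.67, 9.86 and 9.77, and the Tet-tagged arrays with the same numbers had 11.24, 10.61 and 10.32. The Tet-tagged array was the higher of each pair, yet the groups overlapped, because the level differed as much between numbers as between conditions and the arrays numbered 1 were highest in both groups. The change was 0.62 (SE 0.31, 1.54-fold) and did not pass the limma test across groups (adjusted p = 0.631). The HCT15 replicate numbers were taken as pairs (the check is given with the processing), and with the pair as a replicate block CDKN1A rose (limma adjusted p = 0.00493). The differences within pairs were 0.57, 0.74 and 0.55 (mean 0.62 ± 0.11, SD of 3 pairs). The block fit joined the Tet-tagged and untagged array of each derivative and number, HT115 included, and shared 1 spread among all derivatives. Its SE of 0.098 is thus not that of these 3 pairs alone, and the HCT15 Y330H pairs had an SD of 0.20. Without both HCT15 WT arrays numbered 1 the change was 0.65 in the fit across groups (limma adjusted p = 0.688). Leaving out 1 of that pair moved it further, to 0.36 without the Tet-tagged and 0.91 without the untagged array (limma adjusted p of 0.896 and 0.289), and the other single HCT15 WT arrays gave 0.46 to 0.82, none of them called.

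The other inductions gave smaller CDKN1A changes. With Y330H in HCT15, untagged arrays had 10.84, 10.12 and 10.12 and Tet-tagged arrays 10.85, 9.79 and 10.14. The pairs numbered 1 and 3 were level and number 2 was lower, for a mean change of -0.10 (SE 0.31, limma adjusted p = 1.00). With WT in HT115 the levels were 8.63, 9.17 and 9.54 untagged and 8.96, 9.51 and 9.62 Tet-tagged, with overlapping groups and a change of 0.25 (SE 0.31, limma adjusted p = 0.988). With E314K they were 9.78, 9.32 and 9.54 untagged and 10.01, 9.47 and 9.53 Tet-tagged, also overlapping, with a change of 0.12 (SE 0.31, limma adjusted p = 1.00).

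Tested directly, the CDKN1A change in HCT15 was larger with WT than with Y330H by 0.72 (SE 0.44, 95% interval -0.18 to 1.63), which did not pass across groups (limma adjusted p = 1.00) and passed with the replicate block (limma adjusted p = 0.0482), close to the threshold. The corresponding difference in HT115, WT minus E314K, was 0.13 (95% interval -0.78 to 1.03). HCT15 WT minus HT115 WT was 0.38 (95% interval -0.53 to 1.28). Neither interval excludes a difference of the size seen between the HCT15 forms, and neither excludes 0.

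CDKN2B, the gene of p15, was read by 2 probe sets that gave different answers. Probe set 236313_at in HT115 WT had log2 levels of 4.33, 4.66 and 4.07 untagged and 5.54, 5.82 and 5.68 Tet-tagged. All Tet-tagged arrays were above all untagged ones. CDKN2B rose by 1.33 on this probe set (SE 0.25, 95% interval 0.80 to 1.85, limma adjusted p = 0.0398). It was the member called among 16 in this induction, where 0.0861% of all probe sets were called.

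The call was near the threshold. It was lost in the fit of the HT115 WT arrays alone (limma adjusted p = 0.0640) and without any single HT115 WT array, where the change lay between 1.19 and 1.48 and the adjusted p between 0.0687 and 0.277. This CDKN2B probe set was dim, with group means at the 32.7th percentile of the untagged and the 51.7th of the Tet-tagged HT115 WT arrays. No detection call was used, so the untagged level was not shown to be above background and no linear fold is given for CDKN2B. The other CDKN2B probe set, 207530_s_at, had 4.30, 4.24 and 4.14 untagged and 4.78, 4.13 and 4.38 Tet-tagged. Those groups overlapped, and the change was 0.20 (SE 0.15, limma adjusted p = 0.888). The stretch of the CDKN2B transcripts that each probe set reads is not stated in the annotation used.

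In HCT15 WT, CDKN2B 236313_at had 4.23, 4.32 and 4.41 untagged and 4.33, 5.22 and 5.80 Tet-tagged. The Tet-tagged arrays numbered 2 and 3 were above all untagged arrays, while number 1, one of the arrays whose ACTB difference stood apart, lay among them. The untagged mean stood at the 19.0th percentile of the array. The change was 0.80 (SE 0.25, limma adjusted p = 0.254 or 0.0968 with pairs blocked), with differences within pairs of 0.10, 0.90 and 1.39. Without the Tet-tagged array numbered 1 it was 1.19 and passed (limma adjusted p = 0.0158), and without both arrays numbered 1 it was 1.15 (limma adjusted p = 0.0606). Without the Tet-tagged array numbered 3 it was 0.46 (limma adjusted p = 0.658). The part of RNA quality in this spread was not tested. Probe set 207530_s_at had 5.01, 5.32 and 5.18 untagged and 5.07, 5.39 and 5.36 Tet-tagged, higher in each pair by 0.06 to 0.18, with a change of 0.10 (SE 0.15, limma adjusted p = 0.902).

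The mutant forms gave no such values for CDKN2B. On 236313_at the levels with Y330H were 3.91, 4.34 and 3.93 untagged and 4.28, 4.05 and 4.47 Tet-tagged, with a change of 0.21 (SE 0.25). With E314K they were 5.10, 4.81 and 4.37 untagged and 4.79, 4.92 and 4.99 Tet-tagged, with a change of 0.14 (SE 0.25). Groups overlapped in both. The difference between the HT115 inductions, WT minus E314K, was 1.19 on this probe set (SE 0.36, 95% interval 0.45 to 1.93) and did not pass over all probe sets (limma adjusted p = 0.953). These HT115 forms were on different array scales, so form and array set cannot be told apart in it. The difference in HCT15, WT minus Y330H, was 0.59 (95% interval -0.15 to 1.33), and HCT15 WT minus HT115 WT was -0.53 (95% interval -1.27 to 0.21). CDKN2B-AS1, the antisense RNA that overlaps CDKN2B, had its own probe set, which was dim (group means at or below the 7.94th percentile) and passed in none of the inductions (changes between -0.10 and 0.05, SE 0.14).

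**Figure D2:**
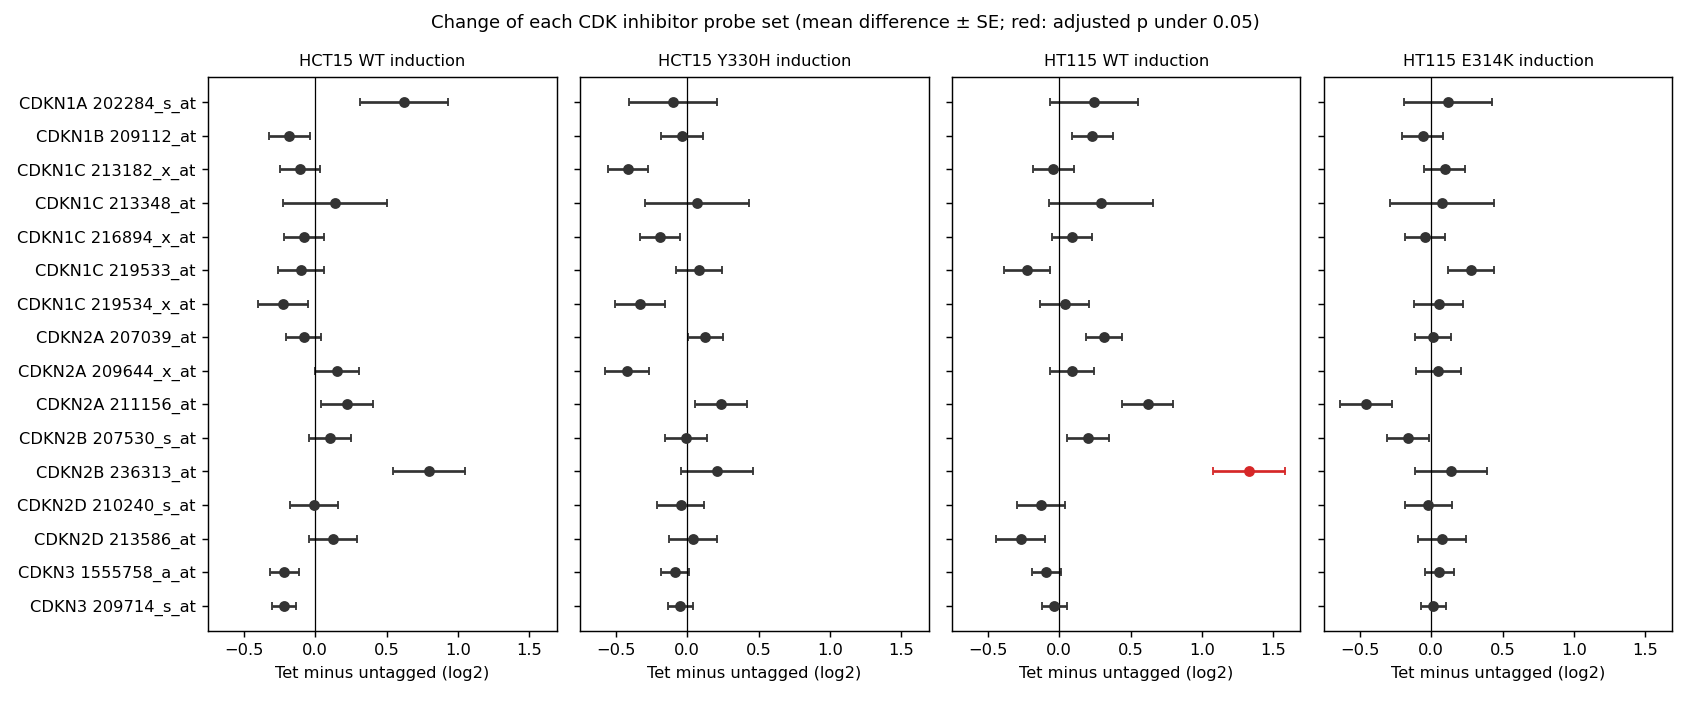
Tet-tagged minus untagged change (log2) of the 16 probe sets in the 4 inductions; points are differences of means of 3 arrays and bars the SE of the fit, with red for an adjusted p under 0.05. CDKN2B 236313_at in HT115 WT, at 1.33, is the red point, and in HCT15 WT the same probe set (0.80) and CDKN1A (0.62) lie farthest right.

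Read as a family, few members stood out from the array in any induction. In HCT15 WT the 16 changes ran from -0.23 to 0.80 with a median of -0.04 (-0.02 over all probe sets). Members were called 0 times where 0.461% of all probe sets were called, and with the replicate block 1 of 16 (CDKN1A) where 2.9% were. In HCT15 Y330H they ran from -0.42 to 0.24 with a median of -0.04, and limma called 0 members as it called 0% of all probe sets, with and without the block (1773 of 54613 had an unadjusted p under 0.05, 2 of them members). In HT115 WT they ran from -0.27 to 1.33 with a median of 0.09 (-0.01 over all probe sets). In HT115 E314K the range was -0.46 to 0.28, the median 0.05, and limma called 0 members and 0% of all probe sets (1253 had an unadjusted p under 0.05, 1 of them a member).

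Tet-tagged and untagged arrays did not overlap for 3 of 16 members in HCT15 WT (13.2% of all probe sets), 1 in HCT15 Y330H (7.66%), 4 in HT115 WT (13.8%) and 2 in HT115 E314K (6.53%). In HCT15 WT these were both CDKN3 probe sets, lower with Tet, and CDKN2A 211156_at, higher. In HT115 WT they were CDKN2B 236313_at, CDKN2A 207039_at and 211156_at, higher, and CDKN2D 213586_at, lower. CDKN1C supplied a member in each mutant induction, 213182_x_at lower with Y330H and 219533_at higher with E314K, and CDKN2A 211156_at was lower with E314K.

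The differences between inductions called 0 members by limma in all 3 comparisons. All probe sets were called at 0.0366% for the HCT15 forms (0.432% with the replicate block, where CDKN1A was the member called), 0.0146% for the HT115 forms and 0.022% for WT between the lines. At an unadjusted p under 0.05, the members were CDKN2A 209644_x_at for the HCT15 forms (0.57, SE 0.22, where Y330H gave the lower values), CDKN2B 236313_at, CDKN2A 211156_at and CDKN1C 219533_at for the HT115 forms, and CDKN2A 207039_at between the lines (-0.40, SE 0.18).

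CDKN3, the phosphatase, was lower in HCT15 with WT MLK4 by small amounts that did not pass. Probe set 209714_s_at had 11.79, 11.81 and 11.80 untagged and 11.52, 11.58 and 11.64 Tet-tagged, a change of -0.22 (SE 0.09, limma adjusted p = 0.448, or 0.208 with pairs blocked). Probe set 1555758_a_at had 11.70, 11.67 and 11.66 untagged and 11.35, 11.50 and 11.53 Tet-tagged, also a change of -0.22 (SE 0.10, limma adjusted p = 0.587). Tet-tagged and untagged arrays did not overlap on either probe set, and the untagged arrays were nearly level. The differences within pairs were -0.27, -0.23 and -0.16 on the first and -0.35, -0.17 and -0.13 on the second, and number 1, the pair whose ACTB difference stood apart, gave the largest on both. Without both arrays numbered 1 the changes were -0.19 and -0.15 (limma adjusted p of 0.708 and 0.829). The CDKN3 changes were between -0.09 and 0.06 in the other inductions.

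CDKN1B, the gene of p27, had log2 levels of 10.30, 10.15 and 9.93 untagged and 10.02, 9.87 and 9.95 Tet-tagged in HCT15 WT, with overlapping groups and a change of -0.18 (SE 0.14, limma adjusted p = 0.838). In HT115 WT they were 8.62, 8.84 and 8.50 untagged and 8.92, 8.99 and 8.75 Tet-tagged, again overlapping, with a change of 0.23 (SE 0.14). The difference between these WT changes was -0.42 (95% interval -0.84 to 0.01). CDKN2D, the gene of p19, changed by -0.01 and 0.12 on its probe sets in HCT15 WT and by -0.13 and -0.27 in HT115 WT, with an SE of 0.17 each and none called. On 213586_at the HT115 WT levels were 4.96, 4.88 and 5.08 untagged and 4.73, 4.67 and 4.71 Tet-tagged, so the arrays did not overlap.

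CDKN1C, the gene of p57, had changes between -0.23 and 0.29 over its probe sets with WT MLK4 in both lines. With Y330H its probe set 213182_x_at had 7.39, 7.54 and 7.40 untagged and 7.29, 6.69 and 7.11 Tet-tagged, a change of -0.41 (SE 0.14, limma adjusted p = 1.00) of which number 2 gave the most, with a pair difference of -0.84. The 3 CDKN1C probe sets with an x in their name, a suffix for probes that can share sequence with other transcripts, followed each other closely over the 12 HCT15 arrays (r of 0.917 to 0.926), and the other CDKN1C pairs less so (r of 0.567 to 0.700). These correlations share the arrays and their scaling and describe the probe sets only.

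CDKN2A, the gene of p16 and ARF, was the member by which the lines differed most. On probe set 207039_at the 12 HCT15 arrays ran from 4.80 to 5.30 with a median of 5.01, and the 6 HT115 E314K arrays from 9.80 to 10.06 with a median of 9.97. On 209644_x_at the HCT15 arrays ran from 5.15 to 6.09 with a median of 5.66 and the HT115 E314K arrays from 9.97 to 10.25 with a median of 10.13. The lines were far apart on both. Among untagged arrays HT115 E314K exceeded the mean of the HCT15 derivatives by 4.93 (SE 0.11, limma adjusted p = 3.18e-19) and 4.42 (SE 0.13, limma adjusted p = 9.02e-17), and by 0.87 (SE 0.16, limma adjusted p = 0.000124) on 211156_at. In HCT15 the group means of the first probe sets stood at the 26.8th to 29.4th and the 35.0th to 41.5th percentiles, within the range of the endothelial markers there (23.1st to 44.4th), so they may be background and no linear fold is given. The last probe set was dim in every group, at or below the 35.9th percentile. HT115 WT arrays also had CDKN2A at high positions on their own scale, with group means at the 87.1st to 92.6th percentiles on the first probe sets.

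Within HT115, CDKN2A did not pass with either form. Probe set 211156_at in HT115 WT had 4.09, 3.85 and 3.63 untagged and 4.13, 4.56 and 4.73 Tet-tagged, and in HT115 E314K 5.82, 5.43 and 5.38 untagged and 4.80, 5.37 and 5.10 Tet-tagged. The arrays did not overlap in either, higher with WT by 0.62 (SE 0.18, limma adjusted p = 0.358) and lower with E314K by a change of -0.46 (SE 0.18, limma adjusted p = 1.00). The WT change on 207039_at was 0.32 (SE 0.13, limma adjusted p = 0.590) and on 209644_x_at 0.09 (SE 0.15). In HCT15 the 209644_x_at change was -0.42 with Y330H (SE 0.15, limma adjusted p = 1.00), with pair differences between -0.48 and -0.34, and 0.15 with WT.

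**Figure D3:**
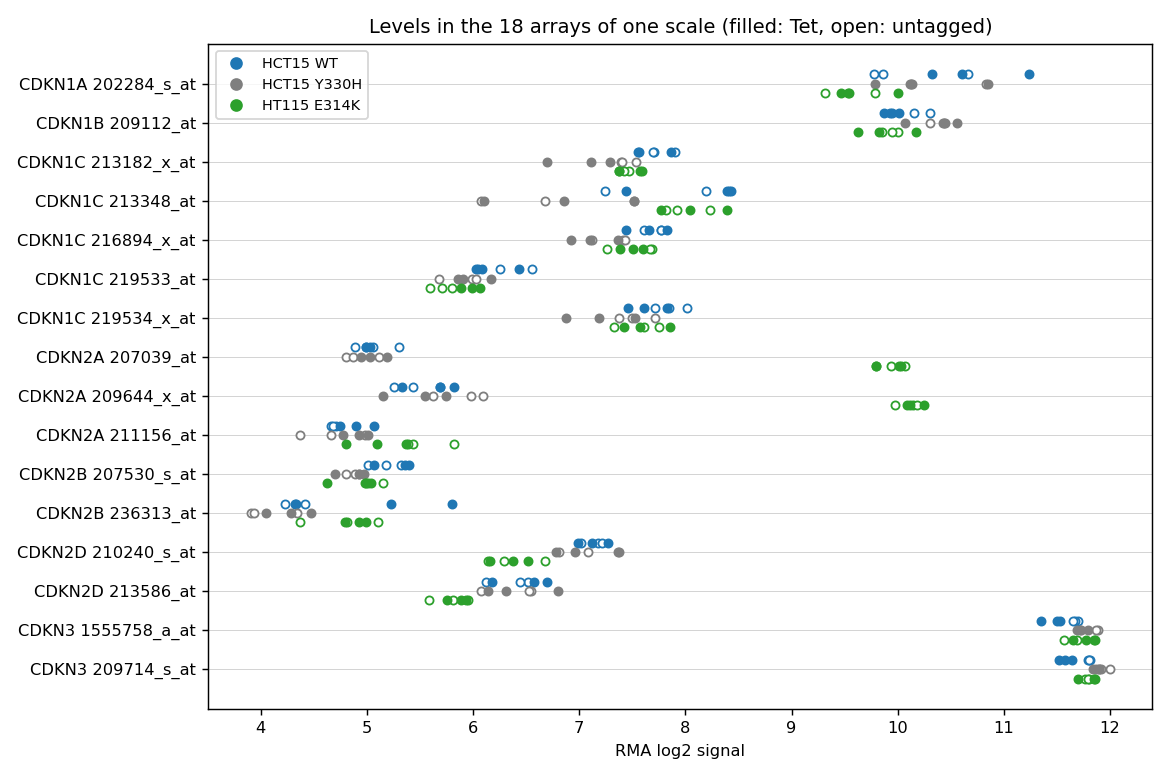
RMA log2 signal of the 16 probe sets on each of the 18 arrays of one scale, filled for Tet-tagged and open for untagged arrays, coloured by derivative. Only CDKN2A 207039_at and 209644_x_at place HT115 E314K far above HCT15, with medians of 9.97 and 10.13 against 5.01 and 5.66; levels are to be compared along a row, not between probe sets.

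Untagged lines differed at 6 of the 16 members, 3 higher and 3 lower in HT115 E314K, where 32.2% of all probe sets were called. This comparison sets a single HT115 derivative against both HCT15 derivatives, so line and derivative cannot be told apart in it. Beside CDKN2A, both CDKN2D probe sets were lower in HT115 E314K, with changes of -0.74 (SE 0.14, limma adjusted p = 0.000308) on 210240_s_at and -0.58 (SE 0.15, limma adjusted p = 0.00335) on 213586_at. CDKN1C 219533_at was lower by a change of -0.39 (SE 0.14, limma adjusted p = 0.0357), a call kept in 10 of 16 alternatives. It was the dimmest CDKN1C probe set, with group means at or below the 48.0th percentile. The other CDKN1C probe sets were not called and went both ways, with 0.64 on 213348_at, 0.02 on 216894_x_at, -0.19 on 213182_x_at and -0.13 on 219534_x_at. Just outside the threshold were CDKN2B 236313_at at 0.57 (limma adjusted p = 0.0503), CDKN1B at -0.33 (0.0508) and CDKN1A at -0.68 (0.0558). The CDKN3 probe sets differed by -0.05 and -0.08 (SE 0.09 and 0.07).

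The order of the group means for CDKN1A on the 18 arrays was HCT15 WT Tet (10.72 ± 0.47), HCT15 Y330H (10.36 ± 0.41), HCT15 Y330H Tet (10.26 ± 0.54), HCT15 WT (10.10 ± 0.49), HT115 E314K Tet (9.67 ± 0.29) and HT115 E314K (9.55 ± 0.23; SD, n = 3 each). Every step between neighbours in that order was smaller than the larger of their SDs. For CDKN2B 236313_at it was HCT15 WT Tet (5.12 ± 0.74), HT115 E314K Tet (4.90 ± 0.10), HT115 E314K (4.76 ± 0.37), HCT15 WT (4.32 ± 0.09), HCT15 Y330H Tet (4.27 ± 0.21) and HCT15 Y330H (4.06 ± 0.24). Here the step between HT115 E314K and HCT15 WT was larger than both SDs, and the other steps were not.

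The untagged HCT15 derivatives differed from each other at 0 of 16 members by limma, where 4.21% of all probe sets were called, and 5 members had an unadjusted p under 0.05. A block fit of these untagged arrays alone, which joined WT and Y330H arrays of the same number, also called 0 members (0.432% of all probe sets). Numbers were not checked as pairs across derivatives, and this fit left fewer residual degrees of freedom than the fit across groups. CDKN1C was the closest. Its probe set 213348_at had 8.20, 8.41 and 7.24 in HCT15 WT and 7.51, 6.07 and 6.67 in HCT15 Y330H, a difference of 1.19 (SE 0.36, limma adjusted p = 0.0693) with overlapping arrays, and the other 4 CDKN1C probe sets were higher in WT by 0.32 to 0.40. CDKN2A 209644_x_at was higher in Y330H by a difference of -0.44 (SE 0.15, limma adjusted p = 0.122).

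The genes around the inhibitors were read from 6 lists, each gene by its brightest probe set. The lists were chosen with earlier results of these data known, so their counts are no independent evidence. Of 19 measured regulators upstream of p21 and p15, 4 rose and 0 fell in HCT15 with WT, where 0.531% of 19775 genes were called. KLF6, a factor that binds GC boxes and induces CDKN1A, rose by 1.20 (SE 0.18, limma adjusted p = 0.00133) and JUN, the AP-1 subunit activated by JNK, by 1.04 (SE 0.16, limma adjusted p = 0.00236). FOXO3, a forkhead factor that induces CDKN1B and other inhibitors, rose by 0.66 (SE 0.11, limma adjusted p = 0.0038), and MYC, which represses CDKN1A and CDKN2B through MIZ1, rose by 0.53 (SE 0.11, limma adjusted p = 0.0334). The replicate block added TGFBR2, the receptor of TGF-beta, a known inducer of CDKN2B, with a change of 0.56 (limma adjusted p = 0.0885 without and 0.00436 with the block). The count of 4 was 2 without both HCT15 WT arrays numbered 1 and 0 in the fit of the HCT15 WT arrays alone.

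These regulators did not start level. Between the untagged HCT15 derivatives limma called 4 of the 19 regulators higher in WT and 1 lower, where 5.03% of all genes were called. HCT15 WT already exceeded HCT15 Y330H in KLF6 by 0.64, JUN by 0.57 and MYC by 0.43 (limma adjusted p of 0.0407, 0.0486 and 0.0296). The block fit of the untagged arrays alone, whose pairing was not checked, called none of them. TGFBR2 was lower by a difference of -0.56 (limma adjusted p = 0.023). FOXO3, which rose with WT, also had a lower untagged mean in HCT15 WT (9.67) than in HCT15 Y330H (9.99). With Y330H the changes were between -0.19 and 0.10 for KLF6, JUN, FOXO3, MYC and TGFBR2. Tested as a difference of inductions in HCT15, KLF6 (1.21), JUN (0.94) and TGFBR2 (0.75) were called with the replicate block (limma, adjusted p of 0.00745, 0.0341 and 0.0237) and not without it (0.116, 0.302 and 0.478).

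In HT115 with WT, 0 of the 19 regulators were called, where 0.106% of all genes were, and KLF6 was the nearest with a change of 0.76 (SE 0.18, limma adjusted p = 0.155), followed by JUN with 0.32 (limma adjusted p = 0.724). The partners and targets of the inhibitors held no called gene in any of the 4 inductions: 0 of 12 CDKs and cyclins, 0 of 13 RB and E2F genes, 0 of 12 genes for turnover of CIP/KIP proteins, 0 of 8 genes from MLK4 to JNK, and 0 of 16 replication genes that E2F activates. With 0.531% and 0.106% of all genes called in the WT inductions and 0% in the mutant ones, lists of this size would hold about 0 calls at the background share, so these counts set the lists apart from no other genes. In HCT15 WT the replication genes had a median change of -0.12 (-0.03 over 19775 genes), with 3 of 16 above 0, and TOP2A, a topoisomerase of proliferating cells, was the nearest to a call at -0.24 (limma adjusted p = 0.427). The count above 0 was also 3 in HT115 WT (median -0.05, -0.02 over all genes), 5 in HCT15 Y330H (-0.04 and -0.02) and 11 in HT115 E314K (0.03 and 0.01). A lean below 0 was thus not particular to HCT15 WT, though the median there lay farthest from that of all genes. In the differences of inductions, 4 of 16 were above 0 for the HCT15 forms (median -0.05, 0.01 over all genes). For the HT115 forms 3 were (-0.06 and -0.03). These medians were not tested. SKP2, which marks p27 and p21 for degradation, had a change of -0.38 in HCT15 WT (SE 0.12, limma adjusted p = 0.274 or 0.0552 with pairs blocked). The repressor E2F6 had one of 0.37 there (limma adjusted p = 0.304 or 0.0504 with pairs blocked).

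**Figure D4:**
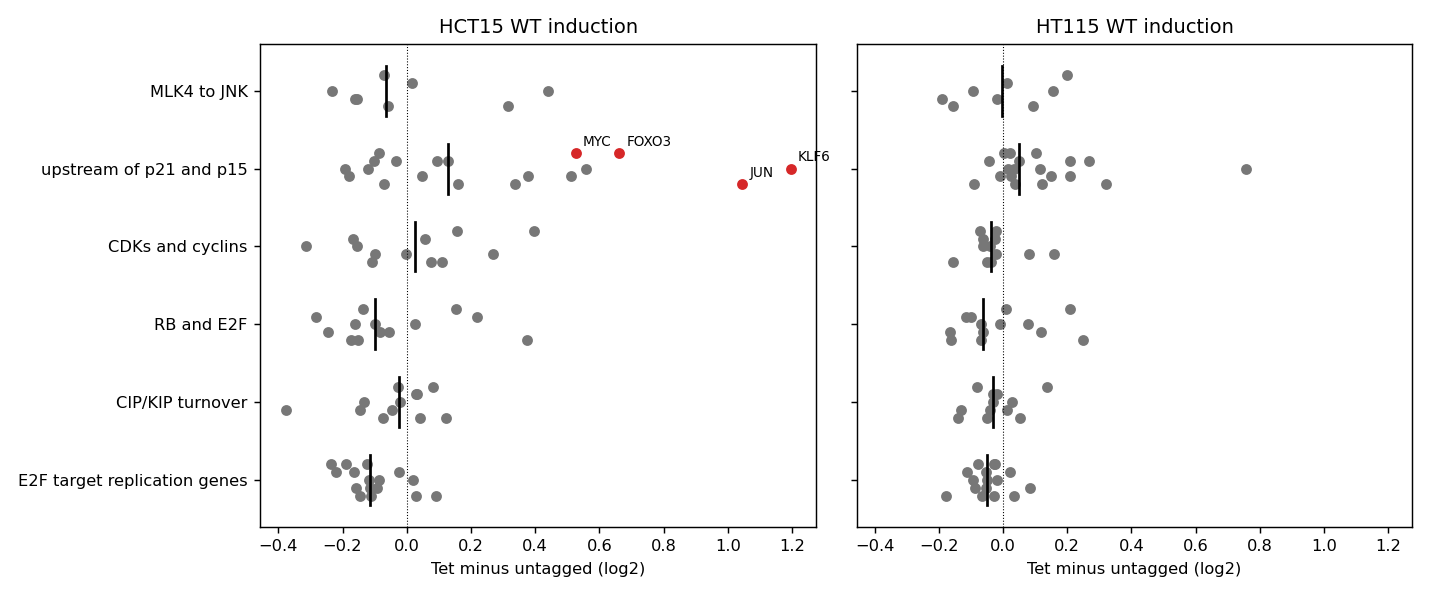
Tet-tagged minus untagged change (log2) of the genes of 6 lists in the HCT15 WT and HT115 WT inductions; each point is a gene, bars are list medians and red marks an adjusted p under 0.05. JUN, KLF6, FOXO3 and MYC are the red points, all in HCT15 WT; no gene is red in HT115 WT.

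Of the 12 CDKs and cyclins, limma called 2 between the untagged HCT15 derivatives, both higher in WT, where 5.03% of all genes were called. CDK4, which INK4 proteins bind, was nearly level there, with means of 12.35 in HCT15 WT and 12.32 in HCT15 Y330H. In untagged arrays CCND2, the gene of cyclin D2, had a level of 10.28 ± 1.97 in HCT15 WT and 6.48 ± 1.02 in HCT15 Y330H (SD, n = 3), a difference of 3.80 (limma adjusted p = 0.00305), and CDK6 differed by 0.73 (limma adjusted p = 0.00438). The block fit of the untagged arrays alone called neither gene (limma adjusted p of 0.12 and 0.145). It joined WT and Y330H arrays by number without a check and left fewer residual degrees of freedom, so it decides little. HT115 E314K exceeded the mean of both HCT15 derivatives by 4.32 in CCND2 and 1.20 in CDK6, while CCNA2 (-1.14), CCNE1 (-1.20) and CCNE2 (-1.58), the cyclins of CDK2, were lower there. CDK4 was higher by 0.19 (limma adjusted p = 0.0444). In this comparison limma called 3 of the 12 genes higher and 7 lower in HT115 E314K, where 36.1% of all genes were called. CCND3, the gene of cyclin D3, went the other way from CCND2. Its untagged mean was 9.997 in HT115 E314K and 10.69 in HCT15 Y330H, and was highest in HCT15 WT. The untagged means of CDK1, CCNB1 and CCNB2 were also lower in HT115 E314K than in either HCT15 derivative.

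The genes whose pattern was most like CDKN1A over the 12 HCT15 arrays, among 12011 genes of at least median level, were MARCHF5 (Pearson r of 0.972), TNFRSF10B (0.968), MRPL10 (0.962), SMAD2 (0.953) and CALCOCO2 (0.948). Their WT changes lay between 0.16 and 0.31, and limma called none of them. For CDKN2B 207530_s_at they were TNFRSF4 (0.963), CD14 (0.955), AVP (0.936), SLC39A3 (0.935) and MACO1 (0.933), with WT changes between 0.04 and 0.20 and none called. The arrays share their derivative, number and scaling, so these values only describe likeness on these arrays.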

How the data were processed

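RNA of 24 samples was amplified with the NuGEN Ovation Pico WTA System V2 and, per the labels' protocols, hybridised to Affymetrix Human U133 Plus 2.0 arrays. Per the submitters' processing notes, the authors used Affymetrix Power Tools and RMA, and the deposited values are log2 signals of probe sets; versions, and detection calls, are not given in the sources used here. Of 54675 probe sets, 62 controls were left out. Of the 54613 tested, 41091 had 1 gene symbol in the platform annotation, 1801 several and 11721 none. A gene outside the family was represented by its brightest probe set (19775 genes), and dim probe sets were kept.

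Group means of all 8 groups were fitted in R 4.3.3 by limma 3.58.1 (functions lmFit, contrasts.fit and eBayes; 16 residual and 4.97 prior degrees of freedom), and p-values were adjusted over all probe sets tested. Levels were compared only within the 18 arrays of one scale. With 3 arrays per group, the number of arrays limits the precision. The script was tested on simulated data. Alternatives were a replicate block, the compared groups or the 18 arrays alone, each array left out, both HCT15 WT arrays numbered 1 left out, brighter or 1-per-gene probe sets, quantile normalization within each scale, eBayes with trend or robust, and arrayWeights. For inductions and their differences the block fit covered all 24 arrays by derivative and number, HT115 included (8 residual degrees of freedom). Between the untagged HCT15 derivatives it covered only their untagged arrays and joined WT and Y330H arrays of the same number. That pairing across derivatives was not checked.

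Deviations from group means correlated between Tet-tagged and untagged arrays of the same repeat number in HCT15 WT (r of 0.496, 0.402 and 0.288 over probe sets) and HCT15 Y330H (0.722, 0.530 and 0.279), so HCT15 numbers were taken as pairs, and the replicate block is given beside HCT15 results where it changed a call, as for CDKN1A (limma adjusted p = 0.00493). The members, the lists and the genes named were chosen by rule with earlier results of these data known: every member probe set is accounted for, and of a list the called genes and up to 3 others of smallest p were eligible. Listed genes without a single-symbol probe set, CDKN2C, BMI1, MAP2K7 and CD68 among them, are not reported here.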

Additional observations from a re-analysis of the deposited data

Results flagged for a closer look

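The CDKN1A change in HCT15 differed between forms in the fit with the replicate block, WT minus Y330H, by 0.72 (limma adjusted p = 0.0482); it was higher in 3 of 3 WT pairs and in 2 of 3 Y330H pairs. Without the block the same difference had a limma adjusted p of 1.00.

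CDKN2A 211156_at was higher in all 3 number-matched HT115 WT comparisons, with a mean of 0.62 (0.04, 0.71 and 1.11), and lower in all 3 of HT115 E314K, with a mean of -0.46 (-1.02, -0.07 and -0.29). The HT115 numbers were not taken as pairs, and the difference itself, 1.08 (SE 0.25), did not pass over all probe sets (limma adjusted p = 0.458).

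CDKN2D 213586_at was higher in all 3 HCT15 WT pairs, with a mean of 0.12, and lower in all 3 number-matched HT115 WT comparisons, with a mean of -0.27. Tested directly the difference was 0.39 (SE 0.24, limma adjusted p = 1.00).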

How the results depend on the processing

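The counts of called members kept within 1.5 times of their main values except as follows. With the replicate block 1 member (CDKN1A) was called in HCT15 WT and 1 (CDKN1A, difference of 0.72, limma adjusted p = 0.0482) between the HCT15 forms, against 0 each without it. In HCT15 WT arrayWeights called 1 (CDKN2B 236313_at), and leaving out single arrays gave 0 to 1. In HT115 WT, the count of 1 was 0 with the compared arrays alone, 0 among probe sets brighter than the median one and 0 with the brightest probe set of each gene (both of which leave 236313_at out), and between 0 and 0 without single arrays, while the replicate block kept it. Between the untagged HCT15 derivatives 1 was called among the brighter probe sets, 6 with arrayWeights and 0 to 1 without single arrays. The cause of these moves was not tested, apart from the left-out probe set.

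CDKN1A changes that were not called turned sign only where single arrays were left out: -0.40 to 0.14 with Y330H, -0.12 to 0.34 for the HT115 difference and -0.049 to 0.24 with E314K. Of 1937 values under alternatives of member changes with an unadjusted p at or above 0.05, 116 had another sign and 5 were called. Of 336 such values of uncalled changes with an unadjusted p under 0.05, 0 had another sign and 30 were called, most of them between untagged lines (CDKN1A in 7 of 18 alternatives, CDKN1B in 6 of 18 and CDKN2B 236313_at in 7 of 16). In HCT15 WT arrayWeights called 2 genes from MLK4 to JNK and 1 of RB and E2F, against 0 each. Over all probe sets, the count called in HCT15 WT (252) ranged from 3 (compared arrays alone) to 2143 (arrayWeights), in HT115 WT (47) from 18 to 275, between HCT15 forms (20) from 1 to 236, between HT115 forms (8) from 1 to 41, between lines (12) from 1 to 108, between untagged derivatives (2301) from 236 to 7482 and between untagged lines (17590) from 7438 to 22682. The 3 arrays per group and the dim CDKN2B probe sets, for which no detection call was used here, limit what can be seen.

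In HT115 the replicate numbers were not taken as pairs: deviations of same-numbered arrays correlated at 0.267, 0.137 and -0.011 with WT and at 0.593, 0.092 and 0.324 with E314K, and 4 of 6 arrays in each correlated best with their own number. With the replicate block CDKN2B 236313_at kept its change of 1.33 (limma adjusted p = 0.0272), all calls in HT115 WT went from 47 to 275 and those in HT115 E314K stayed at 0. The regulators called in HT115 WT went from 0 to 1, KLF6 (limma adjusted p = 0.0091), and arrayWeights also called 1.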
